A study of Mus musculus with 9 samples.

Results

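The collagen genes were followed in sorted muscle satellite cells of wild-type (WT) mice and mice deficient in Bmi1 (KO), a Polycomb group protein. All probes other than controls whose gene name in the scanner output is Col, a number, a and a number were taken, which gave 63 probes for 42 genes among 55681 probes on the array. Where a gene had several probes, the one with the highest mean log2 signal stood for it. Of the 42 genes, 38 were bright enough to test, meaning that their probe stood well above background on 3 or more of the 9 arrays. They were tested among 28364 genes in all.

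Satellite cells are the stem cells of skeletal muscle. RNA of satellite cells sorted from skeletal muscle of male FVB mice, 2 months old in both groups, was amplified, labelled with Cy3 and hybridised to 1-colour Agilent arrays. The sort kept cells with integrin a7 and CD34 on their surface and removed those with CD31, CD45, CD11b or Sca1. The WT group held 3 arrays and the KO group 6 arrays. The labels do not give the Bmi1 allele, the part of the gene that was deleted, or whether cells of several animals were pooled. The title, source and description of KO array 1 place it in the KO group while its genotype field reads wild type; it was kept in the KO group. The 2 Bmi1 probes were not lower in KO (differences of 0.10 ± 0.13 and 0.21 ± 0.14, SE). Whether they lie in the deleted part is not given, so they check no label, and KO stands throughout for the samples labelled as such.

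The descriptions of the 6 KO arrays carry 3 sample numbers, each on a pair of arrays, although the titles number them as 6 biological replicates. Over the probes well above background on all 9 arrays, the arrays of such a pair correlated at 0.9963 to 0.9974, other pairs of arrays at 0.9735 to 0.9863. Each pair was therefore averaged to 1 sample, and 3 KO samples were compared with 3 WT samples. Between 71.9% and 75.8% of spots lay well above background on each array, and no spot was saturated. With 3 samples against 3, an exact permutation test of 1 gene cannot give a two-sided p below 0.1, and the number of arrays limits the precision of every value. The p-values measure the spread between these samples, which the labels tie to mice only through the word biological in the titles.

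Collagens are secreted proteins of 3 chains wound into a triple helix, and the helix requires a glycine at regular intervals in the repeat Gly-X-Y. Fibrillar collagens give tensile strength to connective tissue, type IV collagens form the network of basement membranes, FACIT collagens sit on the surface of fibrils, and type VI collagen forms beaded filaments close to cells. In muscle, the satellite cell lies beneath the basement membrane of the fibre, and both the interstitial fibroblasts and the satellite cell itself are known to make collagens of this surrounding matrix.

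The helix repeat can be read in the probes themselves. A run of at least 6 GGN triplets, the glycine codons, spaced 9 bases apart occurred in 2 of the 63 collagen probes (3.17%) and in 7 of all 55681 probes (0.0126%). The 2 collagen probes are printed here with those glycine codons in capitals, because the repeat of the helix can be seen in them.
Col15a1: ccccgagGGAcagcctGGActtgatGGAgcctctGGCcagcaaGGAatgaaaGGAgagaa
Col25a1: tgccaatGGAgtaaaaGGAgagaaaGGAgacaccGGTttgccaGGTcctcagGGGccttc
The Col15a1 probe lies at chr4:47283786-47283845 on the plus strand of mm9 and the Col25a1 probe at chr3:130270497-130270556, also on the plus strand. The Col15a1 probe read 2.27, 2.21 and 2.05 in WT samples 1, 2 and 3 and 2.86, 2.78 and 2.72 in KO samples 1, 2 and 3, a difference of 0.61 ± 0.13 (SE). These are log2 values after each array's 75th percentile was set to 0, as are all levels that follow. All 3 KO samples lay above all 3 WT samples at this probe. The Col25a1 probe read -3.59, -4.17 and -4.10 in WT and -3.93, -5.40 and -4.25 in KO, a difference of -0.57 ± 0.41 (SE), and the groups overlapped at this probe.

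Across the family, collagen signal leaned towards the KO samples. Of the 38 genes tested, 36 had a KO minus WT difference above 0, beside 47.2% of all genes. The median difference was 0.52 over the collagens and -0.02 over all genes. These counts and medians include Col28a1, which passed the filter through KO arrays alone. Limited to probes well above background on all 9 arrays, 32 of 33 collagens were above 0, beside 45.6% of all genes, with a median of 0.47. All 3 KO samples lay above all 3 WT samples for 17 collagens, where 8.62% of all genes did so, and for no collagen did all KO samples lie below, where 8.09% of all genes did. None of the 38 passed limma with Benjamini-Hochberg adjustment over all 28364 genes at 0.05, where 0.141% of all genes passed, and the smallest adjusted p among the collagens was 0.076. At an unadjusted limma p under 0.05, 16 collagens were higher in KO, beside 6.78% of all genes, and no collagen was lower, beside 4.21%.

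Other settings gave adjusted calls. With normexp background correction, 5 collagens rose at an adjusted limma p under 0.05 (Col1a1, Col1a2, Col23a1, Col8a1 and Col9a2), where 1.04% of all genes passed. In the authors' deposited table, 4 rose (Col1a1, Col1a2, Col23a1 and Col9a2), where 0.843% of all genes passed. Limited to probes well above background on all 9 arrays, 3 rose (Col1a1, Col23a1 and Col9a2), where 0.416% passed. Without any filter on dim probes no collagen passed, where 0.0357% of all genes did.

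**Figure D1:**
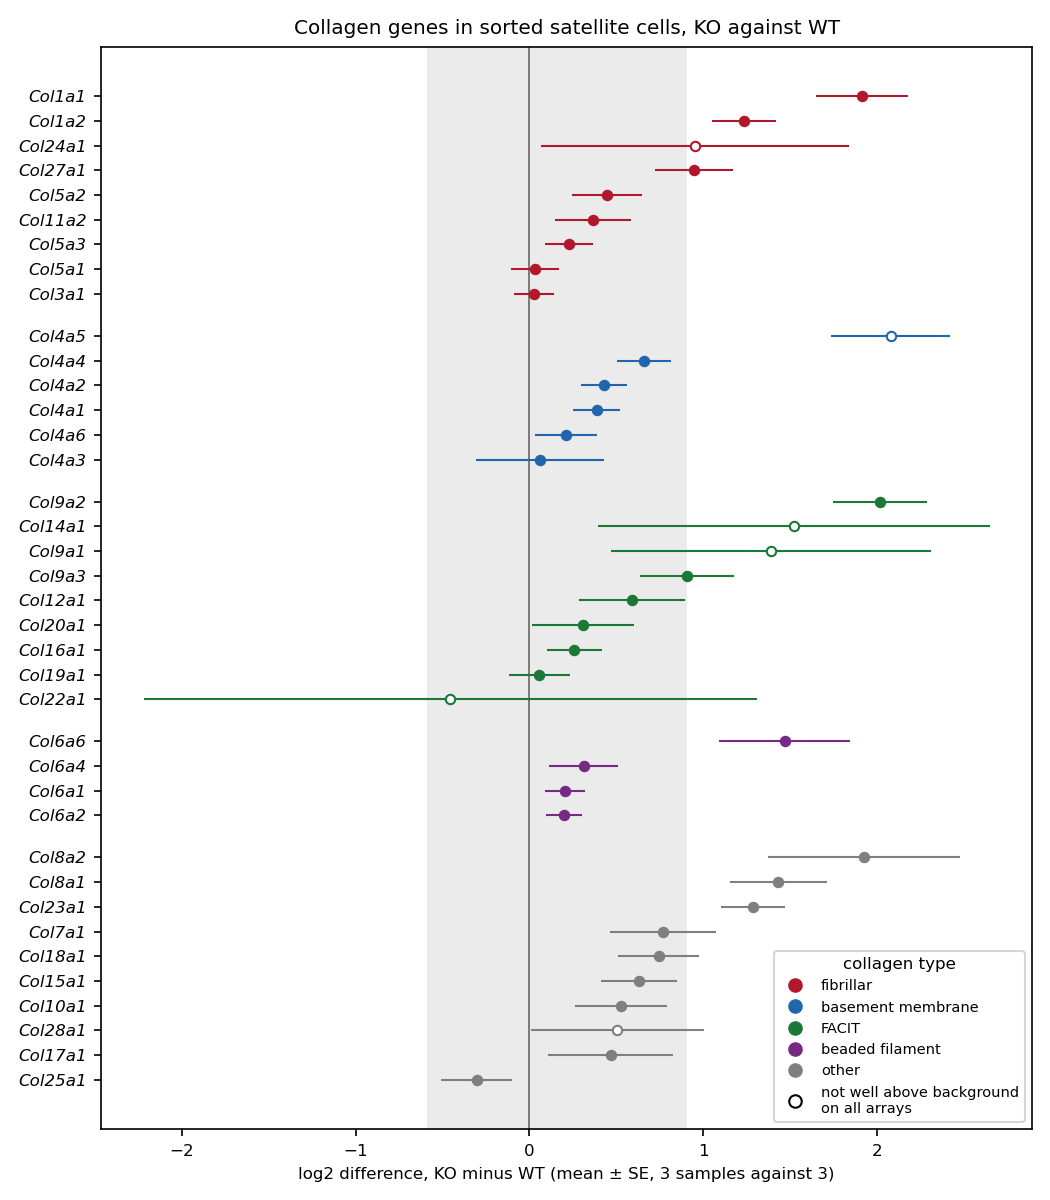
KO minus WT difference in log2 units for the 38 tested collagen genes, grouped by type, as the mean of 3 KO samples minus the mean of 3 WT samples with the limma SE. Open points are genes not well above background on all 9 arrays and the grey band runs from the 5th (-0.58) to the 95th (0.90) percentile of all genes; 36 points lie above 0, with Col4a5, Col9a2, Col8a2 and Col1a1 farthest to the right.

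Among the fibrillar collagens, 9 of 11 genes were tested and all 9 had a difference above 0, with a median of 0.45. Both type I chains differed by more than the type III and type V chains. Col1a1, which encodes the alpha1 chain of type I collagen, the main collagen of tendon, bone and interstitial matrix, was at 1.24, 1.82 and 1.80 in WT samples 1, 2 and 3 and at 3.31, 3.29 and 4.00 in KO samples 1, 2 and 3. No KO sample overlapped the WT range, and the difference was 1.91 ± 0.26 (SE), a 3.76-fold ratio (limma adjusted p = 0.0778). Col1a2, the partner chain, measured 4.17, 4.45 and 4.59 in WT and 5.49, 5.50 and 5.93 in KO. Its samples were likewise separate, 1.23 ± 0.19 (SE) apart or 2.35-fold (limma adjusted p = 0.0889). For both chains KO sample 3 was the highest and WT sample 1 the lowest.

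Col3a1 encodes type III collagen, which is laid down with type I in distensible tissues. Its signal was 6.20, 6.25 and 6.18 in WT and 6.34, 6.23 and 6.14 in KO. The groups overlapped, and the difference was 0.03 ± 0.11 (SE), with a sign that turned when KO sample 1 was left out (-0.03). Within the same samples, the type I to type III contrast moved: Col1a1 relative to Col3a1 differed between KO and WT by 1.89 and Col1a2 relative to Col3a1 by 1.21. Both contrasts separated the 6 samples completely (exact permutation p = 0.1, the smallest possible, and 0.183 after Benjamini-Hochberg adjustment over the 11 chain pairs compared). Col1a1 also differed by 0.68 more than Col1a2, with the same exact p of 0.1.

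The type V chains, which are built into type I fibrils and limit their width, gave smaller differences. Col5a1 was at 4.43, 4.69 and 4.44 in WT and at 4.56, 4.67 and 4.43 in KO. The groups overlapped, the difference was 0.03 ± 0.14 (SE), and its sign turned with slide as a block (-0.01). Col5a2 was at -0.13, 0.40 and -0.06 in WT and at 0.58, 0.70 and 0.26 in KO, a difference of 0.45 ± 0.20 (SE). WT sample 2 reached into the KO range of Col5a2. Col5a3 was at 3.69, 3.95 and 3.62 in WT and at 3.96, 4.07 and 3.90 in KO, with overlap and a difference of 0.23 ± 0.14 (SE). Col27a1, a fibrillar collagen known from cartilage, was at -2.46, -2.33 and -2.92 in WT and at -1.77, -1.30 and -1.80 in KO. Its groups did not overlap, 0.95 ± 0.22 (SE) apart (limma adjusted p = 0.2). The other 2 tested fibrillar genes, Col11a2 and Col24a1, had differences of 0.36 and 0.95 with overlapping samples; that of Col24a1 had an SE of 0.89 and was 0.27 with normexp.

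The stretches of 250 bases upstream of the RefSeq start sites of Col1a2 and Col3a1 are printed because these chains are laid down in the same matrix and their fitted differences, 1.23 and 0.03, lay far from each other, though the contrast between them did not pass after adjustment. They come from the RefSeq table on GRCm38.p6, at chr6:4505368-4505617 and chr1:45311288-45311537, both on the plus strand, and capitals mark motifs searched on both strands: CCAAT, as bound by NF-Y, then the core promoter motif TATAAA, and then the GC box of the Sp1 family, written as GGGCGG here.
Col1a2: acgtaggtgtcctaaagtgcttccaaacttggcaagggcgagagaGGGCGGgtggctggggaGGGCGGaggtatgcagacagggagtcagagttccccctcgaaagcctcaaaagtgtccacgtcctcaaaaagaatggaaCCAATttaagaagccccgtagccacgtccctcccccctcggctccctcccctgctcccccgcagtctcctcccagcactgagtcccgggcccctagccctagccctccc
Col3a1: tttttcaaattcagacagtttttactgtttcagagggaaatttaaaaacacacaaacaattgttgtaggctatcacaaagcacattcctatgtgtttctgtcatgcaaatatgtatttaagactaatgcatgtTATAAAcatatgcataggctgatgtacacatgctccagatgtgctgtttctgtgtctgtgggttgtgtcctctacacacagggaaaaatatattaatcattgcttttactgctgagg
The Col1a2 stretch holds CCAAT beginning 109 bases upstream of the start and GGGCGG at 205 and 188 bases, and the Col3a1 stretch holds TATAAA at 117 bases. Of the 42 collagen genes, 34 had an entry in the table. CCAAT was found in 12 of these 34 stretches (35.3%) beside 34.5% of all 27025, TATAAA in 5 (14.7%) beside 13.0%, and GGGCGG in 21 (61.8%) beside 32.9%. A match is a description of the letters and not a bound site.

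All 6 chains of type IV collagen, the sheet-forming collagen of basement membranes, were tested, and all 6 differences were above 0 with a median of 0.41. Col4a1 and Col4a2 encode the chains found in nearly all basement membranes and are read in opposite directions from start sites that overlap by 21 bases on chromosome 8 (GRCm38.p6, RefSeq). Col4a1 was at 3.75, 3.83 and 3.71 in WT and at 4.00, 4.35 and 4.10 in KO, 0.39 ± 0.14 (SE) apart (limma adjusted p = 0.382). Col4a2 was at 3.46, 3.71 and 3.58 in WT and at 3.95, 4.15 and 3.95 in KO, 0.43 ± 0.13 (SE) apart (limma adjusted p = 0.306). Neither gene's groups overlapped, and their differences were of like size: the KO minus WT change of Col4a1 relative to Col4a2 was -0.04 (exact permutation p = 0.7). Both were highest in KO sample 2.

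The other type IV pairs did not give matching values. Col4a4, a chain of specialised basement membranes such as that of the kidney glomerulus, was at -0.79, -0.43 and -0.75 in WT and at 0.18, -0.13 and -0.04 in KO. The groups were apart by 0.66 ± 0.16 (SE; limma adjusted p = 0.202), and its 3 probes gave 0.38, 1.01 and 0.66. Its neighbour Col4a3 was at -3.17, -3.43 and -3.80 in WT and at -3.95, -2.64 and -3.63 in KO, with overlap and a difference of 0.06 ± 0.37 (SE) that turned to -0.04 under quantile normalization. Col4a4 relative to Col4a3 differed by 0.60 (exact permutation p = 0.3).

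Col4a5 and Col4a6, the X-linked chains, start 1343 bases from each other on opposite strands (GRCm38.p6, RefSeq). Col4a5 was at -5.76, -5.18 and -6.40 in WT and at -4.08, -3.62 and -3.42 in KO, 2.08 ± 0.34 (SE) apart (limma adjusted p = 0.103). It was well above background on 1 of 3 WT arrays and on 6 of 6 KO arrays, and its difference was 0.77 with normexp. Col4a6 was at -3.36, -3.71 and -3.86 in WT and at -3.61, -3.26 and -3.42 in KO, with overlap and a difference of 0.21 ± 0.18 (SE). A dimmer Col4a6 probe, well above background on 1 of 3 WT arrays, gave 2.37 ± 0.65 (SE), so the 2 Col4a6 probes disagreed. With normexp the difference of the brighter Col4a6 probe was 0.10, and no contrast between Col4a5 and Col4a6 is drawn, since Col4a5 was not well above background on most WT arrays.

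**Figure D2:**
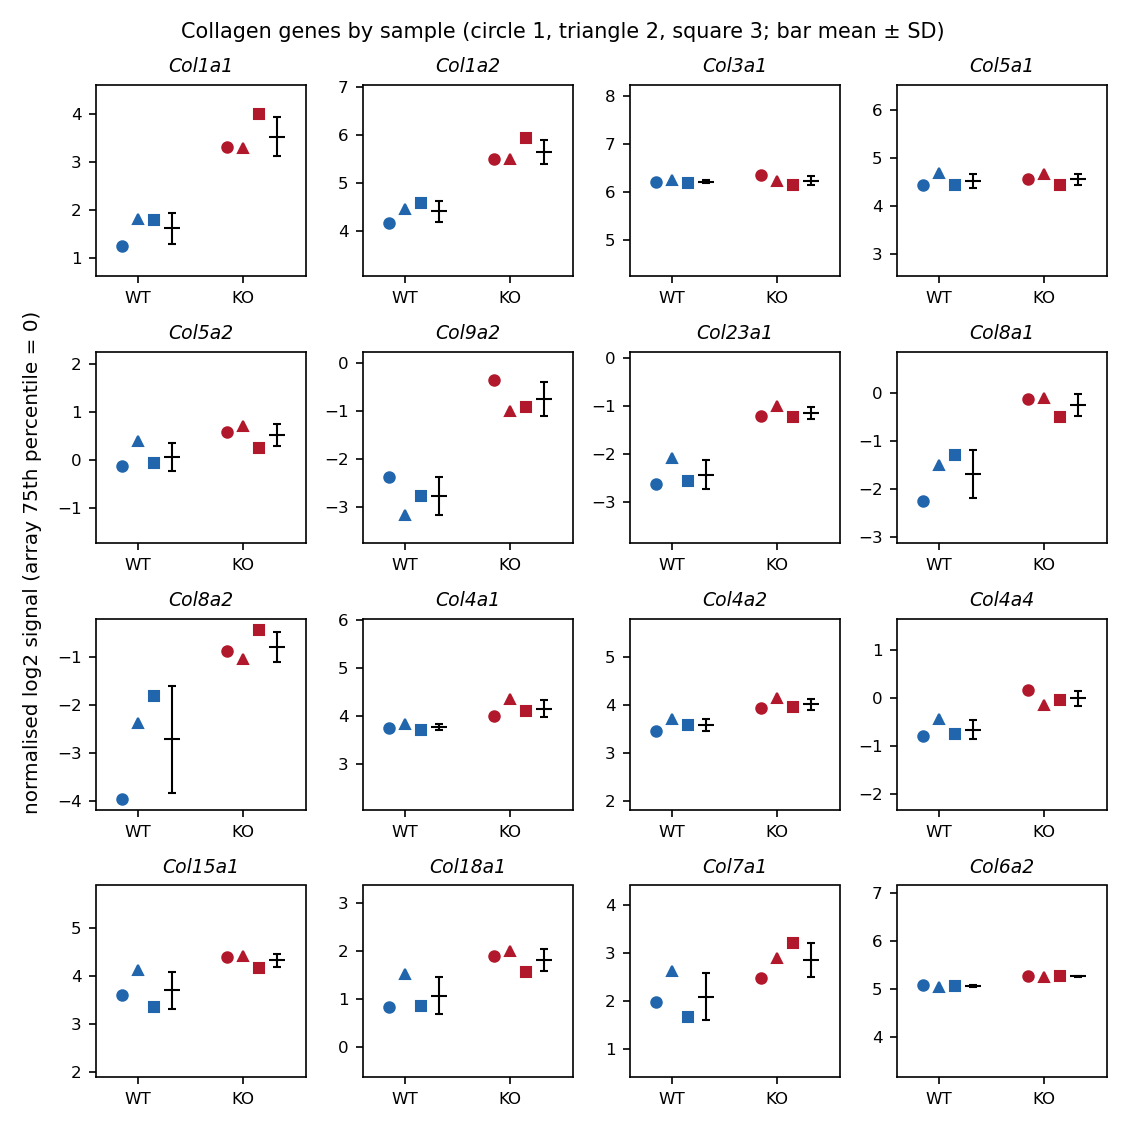
Normalised log2 signal of 16 collagen genes in each WT (blue) and KO (red) sample, with sample 1 as a circle, 2 as a triangle and 3 as a square, and the mean ± SD of 3 samples as a bar; each panel spans the same number of log2 units. Col1a1, Col1a2, Col9a2, Col23a1 and Col8a1 show separate groups, Col3a1 and Col5a1 overlapping ones, and Col6a2 a small gap between tight groups.

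The 9 FACIT collagens had a median difference of 0.59, with 8 above 0. Col9a2 encodes a chain of type IX collagen, which decorates the fibrils of cartilage. It was at -2.38, -3.16 and -2.76 in WT and at -0.34, -1.0 and -0.90 in KO. The groups did not overlap, and the difference of 2.02 ± 0.27 (SE), a 4.05-fold ratio, carried the smallest adjusted p of any collagen (limma adjusted p = 0.076). Col9a3, the alpha3 chain, was at -4.91, -4.96 and -4.73 in WT and at -3.39, -4.40 and -4.09 in KO, also without overlap, 0.91 ± 0.27 (SE) apart and 0.32 with normexp. Col9a2 differed by 1.11 more than Col9a3 (exact permutation p = 0.1). Col9a1 was at -5.11, -4.26 and -6.83 in WT and at -5.37, -4.15 and -2.52 in KO, with overlap, a difference of 1.39 ± 0.92 (SE) and a value of 0.56 with normexp. It was 0.64 without KO sample 3 and 0.67 without WT sample 3, and a second Col9a1 probe gave 0.13 ± 0.45 (SE).

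Col14a1, which joins fibrils in interstitial matrix, was at -7.91, -4.34 and -3.68 in WT and at -3.63, -4.56 and -3.18 in KO. Its difference of 1.52 ± 1.13 (SE) rested on WT sample 1, where the probe was not well above background, and a second probe that was well above background on all 9 arrays gave 0.52 ± 0.42 (SE). The other 5 FACIT genes (Col12a1, Col16a1, Col19a1, Col20a1 and Col22a1) had overlapping samples and differences from -0.45 to 0.59. The lowest was Col22a1, well above background on 1 WT and 3 KO arrays, with an SE of 1.76 and a sign that differed between slides (-1.60 and 1.73).

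Of the 5 type VI chains on the array, 4 were tested, with a median difference of 0.26. Type VI collagen is a component of the satellite cell niche, and its alpha1 and alpha2 chains are obligate partners. Col6a1 was at 4.74, 4.87 and 4.64 in WT and at 4.93, 4.94 and 4.99 in KO, a difference of 0.21 ± 0.12 (SE; limma adjusted p = 0.61). Col6a2 was at 5.08, 5.05 and 5.06 in WT and at 5.26 in each of the 3 KO samples, a difference of 0.20 ± 0.10 (SE; limma adjusted p = 0.574). In both the KO samples lay above the WT samples by a small margin, and Col6a1 relative to Col6a2 differed by 0.01 (exact permutation p = 0.9).

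Col6a6, an alternative partner chain, was at -3.60, -3.57 and -2.67 in WT and at -1.27, -1.78 and -2.39 in KO, 1.47 ± 0.38 (SE) apart without overlap (limma adjusted p = 0.233). Its second probe gave 3.04 ± 0.89 (SE). Col6a4 differed by 0.31 with overlap. Col6a5 was not tested: it was well above background only on both arrays of KO sample 3, where it stood at -3.79 against -8.25 and -8.32 in the other KO samples.

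The remaining types include the network, transmembrane and multiplexin collagens, with 10 of 11 tested, 9 above 0 and a median of 0.69. Col8a1 and Col8a2 encode type VIII collagen, a short-chain network collagen of vessel walls and of Descemet's membrane. Col8a1 was at -2.24, -1.49 and -1.29 in WT and at -0.12, -0.10 and -0.50 in KO, 1.43 ± 0.28 (SE) apart (limma adjusted p = 0.133). Col8a2 was at -3.96, -2.38 and -1.82 in WT and at -0.89, -1.05 and -0.44 in KO, 1.92 ± 0.55 (SE) apart (limma adjusted p = 0.275). Neither gene's groups overlapped, WT sample 1 was lowest for both, and their differences were 0.49 apart with no order between them (exact permutation p = 0.5).

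Col23a1 encodes a transmembrane collagen whose ectodomain can be shed. It was at -2.62, -2.08 and -2.56 in WT and at -1.19, -0.99 and -1.22 in KO. The groups did not overlap, the difference was 1.29 ± 0.18 (SE), a 2.44-fold ratio (limma adjusted p = 0.0823), and its 3 probes gave 1.80, 0.73 and 1.29. Col25a1, another transmembrane collagen, was with Col22a1 one of the 2 tested collagens below 0 (named after its value was seen), at -0.30 ± 0.20 (SE) with overlap. Col17a1, of hemidesmosomes, differed by 0.47, and its sign turned within slide 2 (-0.13). Col13a1, found at the neuromuscular junction, was not tested, being well above background only on both arrays of KO sample 1, where it was at -4.80.

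The multiplexins Col15a1 and Col18a1 are basement membrane zone collagens, the second being the source of endostatin. Col15a1 was at 3.61, 4.12 and 3.36 in WT and at 4.39, 4.41 and 4.17 in KO, 0.63 ± 0.22 (SE) apart (limma adjusted p = 0.376). Col18a1 was at 0.84, 1.50 and 0.85 in WT and at 1.88, 1.99 and 1.55 in KO, 0.74 ± 0.23 (SE) apart (limma adjusted p = 0.324). WT sample 2 was the highest WT sample for both and lay just below KO sample 3, the lowest KO sample, so the groups did not overlap. Their differences were of like size, with a contrast of -0.12 (exact permutation p = 0.3), and their probes gave like values, 0.61, 0.68 and 0.63 for Col15a1 and 0.53 and 0.74 for Col18a1.

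Col7a1, the collagen of anchoring fibrils, was at 1.97, 2.62 and 1.65 in WT and at 2.47, 2.88 and 3.19 in KO. WT sample 2 lay above KO sample 1, and the difference was 0.77 ± 0.31 (SE; limma adjusted p = 0.442). Col10a1 of growth plate cartilage and Col28a1 differed by 0.53 and 0.51 with overlap. Col28a1 passed the filter through KO arrays alone, being well above background on 0 WT and 3 KO arrays, so no ratio is read from it. Col28a1 is still part of the counts and medians of its type and of the family. It stood at -5.97, -6.82 and -6.86 in WT and at -5.24, -7.02 and -5.87 in KO. Col13a1 stood at -5.95, -8.21 and -6.91 in WT and at -4.80, -6.34 and -6.44 in KO. KO samples 2 and 3 of Col13a1 thus lay below WT sample 1, and no ratio is read from it either. Col2a1 of cartilage was well above background only on both arrays of KO sample 3, and Col11a1 on no array.

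**Figure D3:**
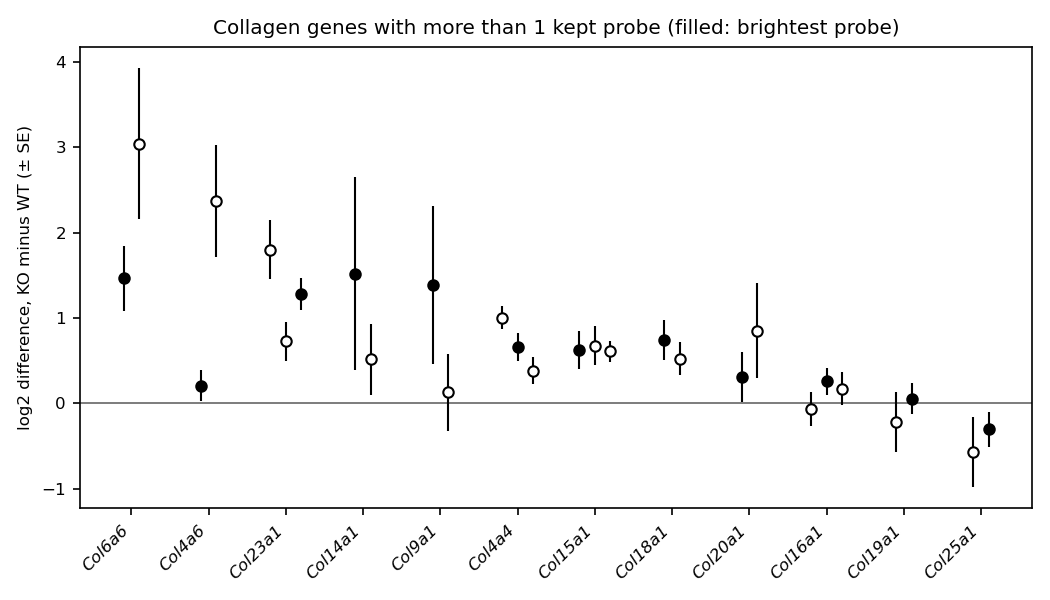
KO minus WT log2 difference (± SE, 3 samples against 3) for each probe of the 12 collagen genes with more than 1 probe past the filter, the brightest probe filled. In 10 genes the probes share a sign, the exceptions being Col16a1 and Col19a1; the Col15a1 probes lie between 0.61 and 0.68 while those of Col4a6 lie at 0.21 and 2.37.

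The lean was seen in each KO sample. Of the 38 genes, 36 lay above the WT mean in KO sample 1, 32 in KO sample 2 and 33 in KO sample 3, beside 49.0%, 43.6% and 53.5% of all genes. The median deviation from the WT mean was 0.70, 0.54 and 0.54 in these samples, and -0.09, 0.15 and -0.09 in WT samples 1, 2 and 3. WT sample 2 was the highest of the WT samples for 20 of 38 collagens (52.6%), beside 31.1% of all genes. It was also the only WT sample on slide 2, whose KO arrays were KO 1, 5 and 6. Within slide 1, with 2 WT and 3 KO arrays, 35 of 38 differences were above 0, beside 45.8% of all genes. Within slide 2, with 1 WT array and so no test, 32 were above 0, beside 51.2% of all genes, and the median was 0.36, against 0.50 within slide 1. Of the chains named above, Col7a1 differed by 1.02 within slide 1 and 0.24 within slide 2, and Col18a1 by 0.91 and 0.36, whereas Col1a1 differed by 1.96 and 1.76. Without KO sample 1, which includes the array whose genotype field reads wild type, 14 collagens were higher at an unadjusted limma p under 0.05, beside 5.50% of all genes, and the median was 0.47.

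Genes that process collagen chains were evenly split in sign. Of 29 listed genes for chain modification, folding, export and trimming, 28 were tested, 14 were above 0 and 14 below, and the median was 0.05. The 14 above 0 include Adamts3, which passed the filter through KO arrays alone. At an unadjusted limma p under 0.05, 6 were higher in KO, beside 6.78% of all genes, and 2 were lower, beside 4.21%. After limma adjustment 1 passed, beside 0.141% of all genes. This was Adamts14, a protease that removes the amino-terminal propeptide of fibrillar procollagens, which rose by 1.34 ± 0.14 (SE, limma adjusted p = 0.0444). It was at -0.08, -0.38 and -0.13 in WT and at 1.05, 1.16 and 1.24 in KO. The call held in 7 of 17 alternatives. The adjusted limma p was 0.115 to 0.151 with a sample left out, 0.101 with slide as a block, 0.126 within slide 1 and 0.0643 without the filter on dim probes, while the difference stayed between 1.21 and 1.40 in all 17. Adamts2, the main protease of that kind for type I, differed by 1.19 ± 0.19 (SE; limma adjusted p = 0.0981). Also higher in KO at an unadjusted limma p under 0.05 were Pcolce2 (0.97) and Pcolce (0.55), enhancers of carboxyl-terminal trimming, Bmp1 (0.28), the protease they enhance, and the collagen galactosyltransferase Colgalt2 (0.95).

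Lower at the same unadjusted threshold were Serpinh1 (-0.36), the chaperone of the procollagen helix known as HSP47, and Colgalt1 (-0.33), the second galactosyltransferase. The prolyl hydroxylase subunits P4ha1 and P4hb and the lysyl hydroxylase Plod2, which modify chains before the helix folds, differed by -0.57, -0.04 and -0.32, none with an unadjusted p under 0.05.

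Of the 5 crosslinking enzymes of the lysyl oxidase family, Loxl2 was higher (0.87 ± 0.14 SE; limma adjusted p = 0.101) and Loxl1 lower (-0.52 ± 0.14 SE; limma adjusted p = 0.252), both without overlap. Lox differed by 1.06 ± 0.49 (SE). Of the 10 collagen receptors, Itga1, the integrin chain that binds type IV and type I collagen, differed by 1.17 ± 0.16 (SE; limma adjusted p = 0.0758), from -0.63, -0.45 and -0.88 in WT to 0.59, 0.60 and 0.37 in KO. Itga11 (1.07) and Itga10 (0.76), the other collagen-binding integrin chains with an unadjusted limma p under 0.05, were higher as well. Itga2, also a collagen-binding integrin chain, differed by -0.85 ± 0.69 (SE) with overlap and was well above background on 4 arrays. Mrc2 was lower without overlap (-0.19). The discoidin receptors Ddr1 and Ddr2 differed by 0.12 and -0.13 and the shared partner Itgb1 by 0.02. Of the 10 receptors, 6 were above 0 and 4 below, with a median of 0.07. At an unadjusted limma p under 0.05, 3 were higher, beside 6.78% of all genes, and 0 were lower, beside 4.21%.

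Markers of mesenchymal, endothelial, tendon, mural and glial cells were mostly above 0 as well, though only Pdgfrb among them passed limma after adjustment, and myeloid markers were not. Beside the counts of each list, 47.2% of all genes were above 0. The part of the markers in the collagen differences was not tested. In bulk RNA of sorted cells, fewer or more cells of a type and less or more RNA per cell cannot be told apart. All 14 satellite cell markers were well above background on all 9 arrays, with a median difference of 0.05 and Pax7 at 0.02 and Itga7 at -0.01. In that list Sdc4 was higher without overlap (0.75 ± 0.13 SE; limma adjusted p = 0.106), as was Cdh15 (0.20), and Fgfr4 was lower without overlap (-0.26). Of 14 mesenchymal markers, 13 were above 0 with a median of 0.88, and their summed level on the log2 scale ran from 4.87 to 5.19 in WT and from 5.53 to 5.73 in KO. Pdgfra, the defining receptor of muscle fibro-adipogenic cells, was well above background on 0 of 3 WT arrays and 6 of 6 KO arrays. It is counted among the 13 although it passed the filter through KO arrays alone, and its difference of 2.93 was 0.75 with normexp. Osr1 was well above background on 1 of 3 WT arrays and Ly6a on 2. Their differences of 0.87 and 1.82 were 0.17 and 0.93 with normexp. Dcn differed by 0.92, and by 0.98 with normexp. Ly6a, which encodes the sorted-out Sca1, stood at -5.35, -4.79 and -5.99 in WT and at -1.61, -5.74 and -3.32 in KO.

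All 13 endothelial markers tested were above 0, with a median of 0.80, although the sort removed cells with CD31, the product of Pecam1. Their summed level ran from 2.15 to 2.49 in WT and from 2.57 to 3.16 in KO. By sample, the median endothelial deviation was 1.70, 0.14 and 0.69 in KO samples 1, 2 and 3, and that of the basement membrane collagens was 0.30, 0.57 and 0.35. By summed level the endothelial markers stood at 3.16, 2.61 and 2.57 in the same samples. Robo4 was well above background on no WT array, and Tie1 on 1. Robo4 is counted among the 13 although it passed the filter through KO arrays alone. With normexp the differences of Flt1 and Eng moved from 1.27 to 0.32 and from 0.01 to -0.01, while that of Kdr stayed at 0.17. Those of Cdh5, Esam and Pecam1 moved from 1.48 to 0.98, from 1.12 to 0.89 and from 1.97 to 0.93. Eng was the only endothelial marker below 0 with normexp. The tendon markers stood at 0.02, 1.04 and 2.64 in KO samples 1, 2 and 3, and their summed level ran from 2.43 to 2.68 in WT and from 3.02 to 3.70 in KO; 5 of 6 were above 0. The fibrillar collagens stood at 0.52, 0.31 and 0.77 in the same samples. The mesenchymal list stood at 0.73, 0.48 and 0.82 there and the mural list at 0.89, 0.17 and 0.78. The glial list stood at 0.48, 0.38 and 0.97 and the myeloid list at -0.12, -0.46 and 0.28. No link between the orders of these lists and those of the collagens was tested.

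Mural markers had a median of 0.49 with 11 of 12 above 0, and Pdgfrb rose by 1.35 ± 0.11 (SE; limma adjusted p = 0.0377), a call that held in 7 of 17 alternatives. It was lost with any 1 sample left out (limma adjusted p from 0.0906 to 0.145), with slide as a block (0.102), within slide 1 (0.126) and without the filter on dim probes (0.057). Their summed level ran from 7.36 to 7.39 in WT and from 7.33 to 7.44 in KO. Glial markers had a median of 0.72 with 9 of 10 above 0 and a summed level from 5.71 to 5.99 in WT and from 6.06 to 6.13 in KO. Myeloid markers had a median of -0.07 with 3 of 9 above 0 and a summed level from 6.95 to 7.16 in WT and from 6.91 to 7.06 in KO. A summed level follows the brightest genes of a list. In the myeloid list this was Itgam, which encodes the sorted-out CD11b, with means of 7.02 in WT and 6.94 in KO. In the mural list it was Mcam, with means of 6.75 and 6.65. The sums of these lists therefore say little about their dimmer genes.

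**Figure D4:**
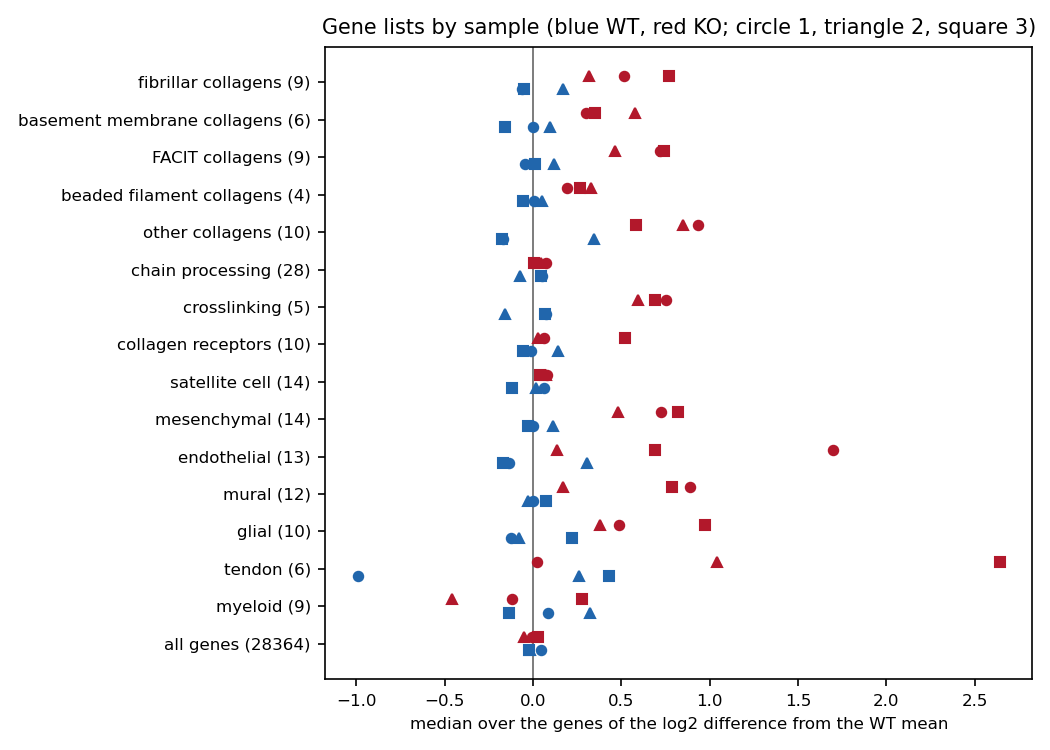
Median over the genes of each list of the log2 difference from the WT mean, for each WT (blue) and KO (red) sample, with the number of genes in brackets. In each of the 5 collagen groups all KO samples lie to the right of all WT samples, as in the mesenchymal, mural, glial and crosslinking lists. The satellite cell and chain processing lists stay near 0, and the endothelial list spreads from 0.14 to 1.70 in KO.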

How the data were processed

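Per the file headers, the authors scanned 9 arrays of 1 colour and read them with Agilent Feature Extraction 10.7.3.1 and mm9 probe coordinates, and the deposited processed signal is a background-subtracted and detrended intensity. Levels are log2 of that intensity minus each array's 75th percentile. The deposited log2 table of the series, made in a way that the labels and headers do not state, has column medians of 7.81 and served as an alternative. Its column for KO array 1 correlated best with the signal of another array, and every other column with that of its own array. The reason was not tested. Outlier spots were left out, repeat spots averaged and probes kept where well above background on at least 3 arrays (42983 of 55681). Names came from the RefSeq GRCm38.p6 table by accession (26300 probes), symbol (2044) or synonym (360), and stayed as in the files for 26977.

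KO arrays sharing a sample number were averaged. WT and KO were compared with limma 3.58.1 in R 4.3.3 (lmFit, eBayes; 4 residual and 2.04 prior degrees of freedom), with Benjamini-Hochberg adjustment over 28364 genes; the script was tested on simulated data. The members and lists were chosen with earlier results of these data known. Values by sample are given for collagens with an unadjusted p under 0.05 or a log2 difference of at least 1 in size, for the type IV pairs that share a promoter and for the main interstitial and niche chains; other members are given by range or counts, and other genes of the fixed lists at an unadjusted p under 0.05, with at most 6 more. The 18 alternatives were normexp (offset 50), quantile normalization, the deposited table, the filter on dim probes, the probe rule, the handling of repeat arrays, slide, the replicate number and each sample left out. Whether a probe lies in an exon or UTR of mm9 was not analysed here.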

Additional observations from a re-analysis of the deposited data

How the results depend on the processing

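Of 466 values of the 26 collagens given by sample, under 18 alternatives, 418 kept direction and side of the threshold, 28 came past it, 9 moved and 11 turned sign, all of Col3a1, Col4a3 and Col5a1, whose differences were close to 0. Of the 12 other tested collagens, looked at under the slide settings alone, Col17a1 (-0.13) and Col19a1 (-0.28) turned sign within slide 2, Col19a1 (-0.02) and Col22a1 (0.07) with slide as a block, Col22a1 within slide 2 (1.73) and Col28a1 within slide 1 (-0.08). No collagen passed the adjusted threshold in limma's main comparison, under quantile normalization, without a filter on dim probes, with the mean of all kept probes, with slide as a block, within slide 1 or with any sample left out. Those passing were 5 with normexp, 4 in the authors' deposited table, 3 with probes well above background on all arrays, 5 with sample as a random block and 11 with all arrays as separate samples, where repeat arrays count as samples and p-values are too small; the shares of all genes passing in the last 2 were 1.92% and 4.24%. In the settings where no collagen passed, few genes of any kind did. Of all genes, 0.109% passed under quantile normalization, 0.0357% without a filter on dim probes and 0.148% with the mean of all kept probes. With slide as a block 0.0141% passed, within slide 1 0.00705%, and with a sample left out from 0 to 0.0317%. The median difference of the collagens was 0.33 with normexp, 0.32 in the deposited table and 0.36 within slide 2, and the FACIT median 0.32, 0.32 and 0.27. The type IV median was 0.56 with the mean of all kept probes, and the type VI median 0.33 within slide 1 and 0.13 within slide 2. No collagen lay wholly below WT in the main comparison, 2 did within slide 2 and 0 to 1 with a sample left out. With fewer samples, groups lie apart more easily. No share of all genes was taken for these counts or for the counts of collagens apart with a sample left out. They are therefore not set beside the 8.62% and 8.09% of the main comparison. Leaving out each sample gave 11 (without WT sample 1) to 18 (without WT sample 2) collagens higher at an unadjusted p under 0.05, beside 6.31% and 6.95% of all genes, 17 to 23 apart and higher, a family median of 0.44 to 0.62, a FACIT median of 0.31 (without WT sample 1) to 0.86 (without WT sample 2) and a type VI median of 0.17 to 0.36. Signs turned for Col4a3 under quantile normalization (-0.0404), within slide 2 (-0.0008) and with a sample left out (-0.32 to 0.33), for Col5a1 with slide as a block (-0.0103), within slide 2 (-0.13) and with a sample left out (-0.0275 to 0.12), and for Col3a1 within slide 2 (-0.0466) and with a sample left out (-0.0274 to 0.075); the cause was not tested. Slide as a block takes the slide term from the WT samples alone, since every KO sample has an array on each slide.

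WT and KO samples share replicate numbers, but the same-numbered deviations from the group means correlated at -0.04, 0.03 and 0.01, so no shared variation by number was seen. Whether the numbers stand for pairs cannot be told from these values. With the replicate block 0 collagens and 0 of all genes passed, 17 collagens were higher at an unadjusted p under 0.05, beside 6.90% of all genes, and the median stayed 0.52. Under it the calls of Adamts14 (limma adjusted p = 0.192) and Pdgfrb (0.187) were lost.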

Other observations

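Collagen genes that the files hold under other names lay outside the naming rule. The probe for Col26a1, named Emid2 in the files, was at 2.78, 3.33 and 3.02 in WT and at 3.39, 3.88 and 3.31 in KO, a difference of 0.48 ± 0.23 (SE; limma adjusted p = 0.53) with overlapping groups. A probe named Gm7455, which RefSeq assigns to Col6a5, was well above background on 4 arrays and differed by 1.74 ± 0.95 (SE; limma adjusted p = 0.602), with -7.66, -7.54 and -8.09 in WT and -8.17, -4.28 and -5.63 in KO. Both adjusted p-values are over the 42983 kept probes and not over the 28364 genes.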
